A study of Mus musculus and Homo sapiens with 4 samples.

Results

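The 35 genes described here are inflammatory chemokines, cytokines and surface proteins, together with the subunits, inhibitors and adaptors of the transcription factor NF-kB. They form a list of symbols drawn up by function, with earlier results of these data known, and matched without regard to case to the platform annotation of each array. Of the 35, 33 had a probe set (the group of short probes that reports 1 transcript) with 1 gene symbol on the human array and 33 on the mouse array, out of 19773 and 18193 genes named that way. CSF2 and BCL3 had no probe set with 1 symbol on the human array, and CXCL8 and NFKB1 matched none on the mouse array. The study compared stable retroviral knock-down of Merm1 with control vector in a human melanoma line, A375M, and in a mouse osteosarcoma line, LM8. Merm1, also called Wbscr22 and now Bud23 (BUD23 in human), is an enzyme that methylates the RNA of the small ribosomal subunit. The 4 groups were A375M cells with pSIREN-RetroQ-human Merm1/Wbscr22, A375M cells with pSIREN-RetroQ-control, LM8 cells with pSIREN-RetroQ-mouse Merm1/Wbscr22 and LM8 cells with pSIREN-RetroQ-control. All 4 therefore carried a pSIREN-RetroQ vector and grew in serum-containing medium, DMEM for A375M and MEM for LM8. The labels name no added cytokine or other stimulus. Each group is 1 array of 1 established line, and the sources used here do not say whether the lines are clones or pools.

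NF-kB is a family of dimers built from RELA, RELB, REL and the products of NFKB1 and NFKB2. In resting cells IkB proteins such as those of NFKBIA and NFKBIE hold the dimers in the cytoplasm. Signals from interleukin 1, tumour necrosis factor or pattern receptors lead to IkB degradation, and the freed dimers bind kB sites in DNA. Their targets include chemokines and cytokines, and also NFKBIA and TNFAIP3, whose products shut the pathway down again. Melanoma cells are known to make chemokines of the CXC class and interleukin 1 themselves.

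Values are log2 expression values made by RMA, a method that corrects background, equalises the arrays and summarises each probe set. Differences are knock-down minus control on that log2 scale. With 1 array per group there is no replicate check and no test, and precision is limited by having so few arrays. Probe sets of the same gene served as a technical gauge. The SD between their differences had a median of 0.0712 and a 90th percentile of 0.196 in A375M, over 6265 genes with several probe sets. In LM8 the median was 0.116 and the 90th percentile 0.279, over 5313 genes. This gauge leaves out the spread between cultures. A gene was kept when its probe set lay above the array median in at least 1 array of the line. The medians were 4.67 in the A375M knock-down array and 4.64 in the A375M control array, and 5.28 in the LM8 knock-down array and 5.29 in the LM8 control array. The target was lower in both knock-down arrays, with BUD23 at 8.38 in A375M knock-down cells and 10.70 in A375M control cells, and Bud23 at 8.48 in LM8 knock-down cells and 10.61 in LM8 control cells. In A375M 45.4% of all probe sets read identically in the knock-down and control arrays, against 0.705% in LM8. The sources used here do not give the step that made them equal. A value listed as identical in A375M is therefore not a measured absence of change. Values also recurred within an array, on 67.3% of probe sets in the A375M control array and 13.1% in the LM8 control array. Whether small A375M differences are steps between such shared values was not tested. Of the marker genes of each line's lineage, 6 of 6 named melanocyte markers lay above the array median in both A375M arrays and 5 of 5 named osteoblast markers in both LM8 arrays. In A375M only MITF (10.74 in knock-down, 10.61 in control) and SOX10 (11.53, 11.62) were bright, PMEL, MLANA, TYR and TYRP1 reading 4.84 to 6.04. Of the other line's markers, 3 of 7 named osteoblast markers passed in both A375M arrays and 2 of 7 melanocyte markers in both LM8 arrays. Leukocyte markers were mixed. Of those named, 6 of 11 lay above the median in both A375M arrays and 5 of 12 in both LM8 arrays, with FCER1G at 10.23 in LM8 knock-down and 10.51 in LM8 control cells. PTPRC, the pan-leukocyte antigen CD45, was below the median in all 4 arrays.

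The promoters of 6 mouse members are shown because they hold matches to the NF-kB consensus and belong to chemokine and inhibitor genes whose transcripts are described below. They are RefSeq windows on build GRCm38.p6, from 250 bases before to 50 bases after the annotated start, written 5′ to 3′ on the gene's strand. Capitals mark matches to the NF-kB consensus decamer on either strand, and overlapping matches are merged. The 3 CXC chemokine windows are on chromosome 5, plus strand, at chr5:90890995-90891294 (Cxcl1), chr5:90903649-90903948 (Cxcl2) and chr5:90785851-90786150 (Cxcl3). Tnfaip3 is at chr10:19015361-19015660 on the minus strand, Nfkbia at chr12:55492598-55492897 on the minus strand and Nfkbie at chr17:45555450-45555749 on the plus strand.
Cxcl1: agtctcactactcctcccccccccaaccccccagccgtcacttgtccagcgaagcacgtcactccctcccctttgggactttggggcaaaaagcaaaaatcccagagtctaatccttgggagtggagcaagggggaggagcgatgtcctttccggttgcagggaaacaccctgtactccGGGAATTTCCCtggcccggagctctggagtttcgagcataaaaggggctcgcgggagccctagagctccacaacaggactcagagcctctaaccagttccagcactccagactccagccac
Cxcl2: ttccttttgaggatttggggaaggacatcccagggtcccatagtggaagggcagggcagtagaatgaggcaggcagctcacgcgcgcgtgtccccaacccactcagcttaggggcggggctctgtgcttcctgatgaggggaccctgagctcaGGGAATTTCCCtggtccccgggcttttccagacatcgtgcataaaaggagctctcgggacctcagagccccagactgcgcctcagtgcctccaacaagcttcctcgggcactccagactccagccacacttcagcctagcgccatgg
Cxcl3: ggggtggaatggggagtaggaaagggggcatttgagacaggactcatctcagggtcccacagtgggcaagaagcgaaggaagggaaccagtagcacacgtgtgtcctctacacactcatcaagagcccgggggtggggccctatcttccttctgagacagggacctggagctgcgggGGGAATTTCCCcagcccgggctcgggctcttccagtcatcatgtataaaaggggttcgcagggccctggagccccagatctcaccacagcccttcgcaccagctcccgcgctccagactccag
Tnfaip3: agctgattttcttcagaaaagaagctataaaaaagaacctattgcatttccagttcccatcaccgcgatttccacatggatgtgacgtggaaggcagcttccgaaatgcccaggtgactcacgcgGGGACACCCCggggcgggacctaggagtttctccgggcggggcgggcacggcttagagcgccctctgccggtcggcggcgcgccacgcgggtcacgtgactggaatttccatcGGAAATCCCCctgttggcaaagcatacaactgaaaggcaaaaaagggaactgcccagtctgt
Nfkbia: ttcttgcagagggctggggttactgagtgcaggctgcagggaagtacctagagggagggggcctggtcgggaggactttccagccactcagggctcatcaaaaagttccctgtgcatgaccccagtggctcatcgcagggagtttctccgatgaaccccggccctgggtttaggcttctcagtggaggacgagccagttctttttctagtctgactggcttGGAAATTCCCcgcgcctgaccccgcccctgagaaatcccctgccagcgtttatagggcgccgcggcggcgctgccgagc
Nfkbie: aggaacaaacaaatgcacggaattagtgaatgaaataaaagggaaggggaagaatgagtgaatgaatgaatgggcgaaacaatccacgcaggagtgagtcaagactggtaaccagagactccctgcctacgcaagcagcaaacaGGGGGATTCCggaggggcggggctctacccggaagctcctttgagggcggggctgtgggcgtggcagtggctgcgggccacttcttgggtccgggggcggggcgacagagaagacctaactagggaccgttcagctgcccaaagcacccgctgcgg

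The same decamer, GGGAATTTCC, starts 71 bases before the start of Cxcl1, 97 before that of Cxcl2 and 73 before that of Cxcl3. In each it overlaps a match on the other strand that begins 1 base later. Tnfaip3 had 2 matches in the window shown, 125 and 12 bases before the start, and none in the window of its other annotated start. Nfkbia had 1 match, GGAAATTCCC, 29 bases before the start, and Nfkbie 1, GGGGGATTCC, 106 bases before. RefSeq windows were found for 24 of the 35 genes, 27 windows in all. A match stood in 16 of those 27 windows (59.3%), against 2779 of 32851 windows (8.46%) over all mouse genes in the table. The list was drawn up from known NF-kB targets and subunits, so this share describes the list. A match is a run of letters, not a measured site. Human promoters were not used here.

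In A375M, cells with the Merm1 hairpin had lower transcript levels of most of these genes. Of 30 kept members 25 were lower than in control cells, 1 (IL6) was higher and 4 were identical. Among all 13244 kept genes 40.3% were lower, 29.0% higher and 30.8% identical. The members' median difference was -0.14, beside 0 over all kept genes. At least 1.5-fold (0.585 on the log2 scale), 4 members were lower and 0 higher, where 0.37% of all kept genes were lower and 0.378% higher. The 4 were CCL2, IL1A, CXCL2 and PTGS2. By more than the 90th percentile of the gauge, 14 members were lower and 1 was higher, against 8.65% and 5.52% of all kept genes. All 30 kept members passed the filter in both arrays. With all 33 named members the counts were 25 lower, 2 higher and 6 identical. Of all named genes without the filter 31.9% were lower and 28.7% higher. With the filter raised to the 70th percentile 48.2% of all genes were lower and 27.1% higher, and all 25 members that passed that filter were lower. The split of all genes depended on scaling. With each array centred on its median 75.2% of kept genes were lower and 24.8% higher, after repeated quantile normalization 36.6% and 57.1%, and after removal of a loess curve 46.9% and 53.1%. For the members these settings gave 29 lower and 1 higher, 27 and 2, and 28 and 2.

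**Figure D1:**
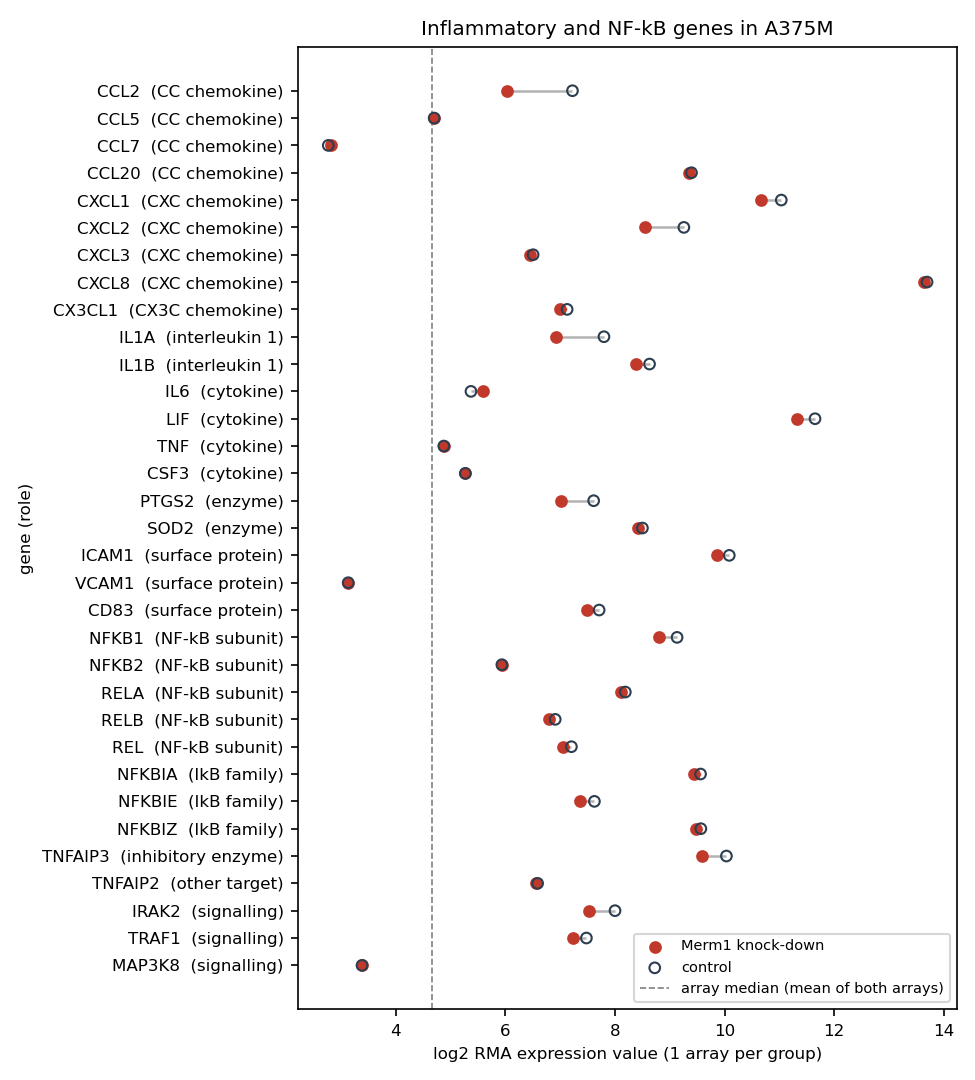
Level of each named member in A375M (log2 RMA value, 1 array per group), with the Merm1 knock-down array as filled red points, the control array as open points and the mean of the array medians as a dashed line. CCL2 (6.03 in knock-down, 7.22 in control) has the widest gap, most other pairs have the knock-down point to the left, and IL6 has it to the right.

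Among the chemokines CCL2 and CXCL2 were at least 1.5-fold lower in knock-down cells, and the others differed by less. CCL2, which draws monocytes through its receptor CCR2, was at 6.03 in A375M knock-down cells and 7.22 in A375M control cells. The difference of -1.20, or 2.29-fold lower, was among the 3 lowest of the 13244 kept genes. CXCL2, a neutrophil chemoattractant, was at 8.56 in knock-down and 9.26 in control cells, a difference of -0.70 or 1.63-fold lower. That value rests on 1 probe set marked as shared, the other CXCL2 probe sets being identical and below the median, and the mean of all was -0.23. CXCL1, which acts on the same receptor CXCR2, was at 10.67 in knock-down and 11.04 in control cells, a difference of -0.37. CXCL3, another ligand of that receptor, was at 6.45 in knock-down and 6.51 in control cells, a difference of -0.06 that is below the median of the gauge. CXCL8, or interleukin 8, a melanoma-secreted neutrophil chemokine, was at 13.64 in knock-down and 13.70 in control cells. Its probe sets differed by -0.06 and -0.10. CX3CL1, a membrane-anchored chemokine, was at 6.996 in knock-down and 7.13 in control cells on 1 probe set (-0.13), and differed by -0.02 on the other. CCL20, a ligand of CCR6, was at 9.35 in knock-down and 9.40 in control cells, a difference of -0.04 that was 0.0016 after repeated quantile normalization. CCL5 was identical at 4.70 in both arrays, just above the array median, and CCL7, an attractant of monocytes like CCL2, lay below the median at 2.82 in knock-down and 2.77 in control cells.

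Both interleukin 1 genes were lower in A375M knock-down cells. IL1A, which encodes the alpha form that often stays with the producing cell, was at 6.92 in knock-down and 7.80 in control cells, a difference of -0.88 or 1.84-fold lower, the tenth lowest of the kept genes. Its other probe set read 3.20 in both arrays, below the median. IL1B, the secreted form, was at 8.39 in knock-down and 8.63 in control cells. Its probe sets gave differences of -0.25 and -0.26, close to each other. PTGS2, the inducible cyclooxygenase that starts prostaglandin synthesis, was at 7.01 in knock-down and 7.61 in control cells, a difference of -0.60 or 1.51-fold lower. A second PTGS2 probe set gave -0.56, so the gene lies at the 1.5-fold limit and on both sides of it.

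The remaining cytokines were mixed. LIF, a cytokine of the interleukin 6 family that signals through LIFR and gp130, was at 11.32 in A375M knock-down and 11.65 in A375M control cells, a difference of -0.33. IL6, the member that was higher, was at 5.59 in knock-down and 5.37 in control cells, a difference of 0.22, and 611 kept genes, IL6 included, were as high or higher. TNF (4.87) and CSF3 (5.27) read the same in both arrays. IL6, TNF and CSF3 all lay close to the array median. The IL6 knock-down value, 5.5905, was also the control value of an NFKB2 probe set. VCAM1, an adhesion molecule for leukocytes, was identical at 3.13 and below the median. ICAM1, the ligand of leukocyte integrins, was at 9.86 in knock-down and 10.09 in control cells, and its 3 probe sets differed by -0.22, -0.22 and -0.11. CD83, a surface protein of activated antigen-presenting cells, was at 7.49 in knock-down and 7.71 in control cells, a difference of -0.22. SOD2, the mitochondrial superoxide dismutase, was at 8.43 in knock-down and 8.50 in control cells (-0.07) on its only probe set of 1 symbol.

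**Figure D2:**
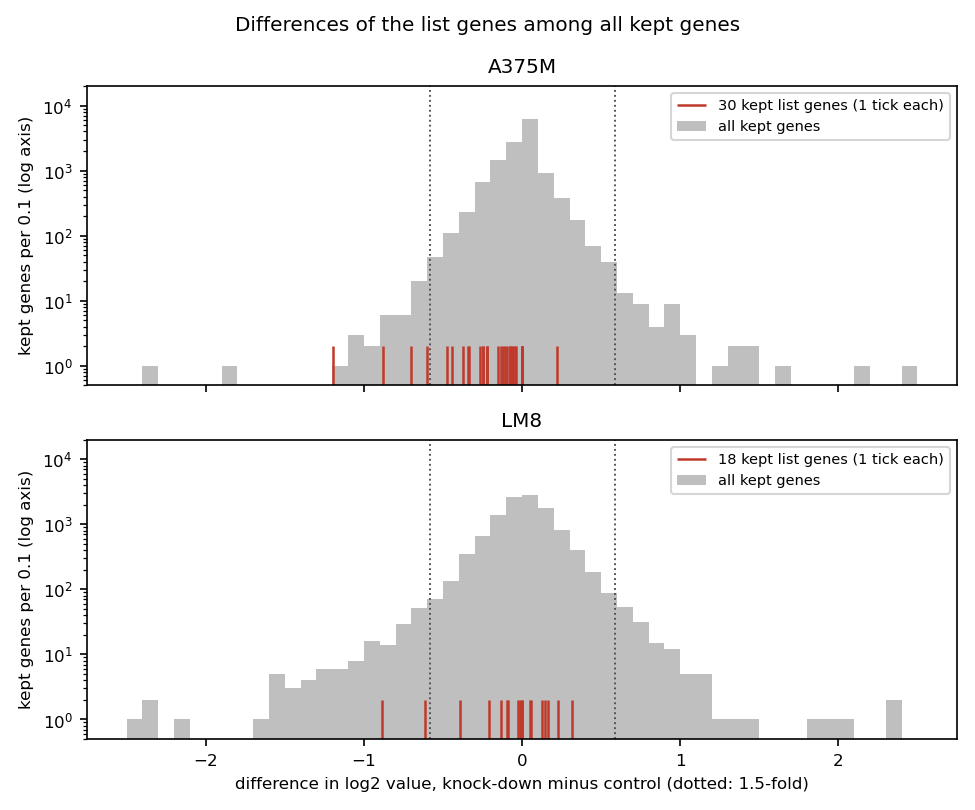
Number of kept genes per 0.1 of log2 difference, knock-down minus control (grey, log axis), with A375M above and LM8 below, 1 red tick per kept member and dotted lines at 1.5-fold. In A375M most ticks of the 30 members lie left of 0 with 4 beyond the 1.5-fold line, while the 18 ticks in LM8 fall on both sides. The tall bar just right of 0 in A375M holds the identical genes.

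The NF-kB subunit genes all differed by less than 1.5-fold in A375M. On the probe set that stands for each gene, 4 of the 5 were lower and NFKB2 was identical. Among all kept genes 40.3% were lower and 30.8% identical. NFKB1, which encodes the precursor of p50, was at 8.80 in knock-down and 9.13 in control cells, a difference of -0.34. REL was at 7.05 in knock-down and 7.205 in control cells (-0.15), with its other kept probe sets at -0.05 and -0.03. RELB, the partner of p52, was at 6.80 in knock-down and 6.91 in control cells (-0.11). RELA, the main activating subunit, had probe sets of both signs, -0.08 and 0.05, and NFKB2 differed by 0 on 1 kept probe set and by -0.12 on another. Only NFKB1 among the 5 lay beyond the 90th percentile of the gauge.

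Of the feedback inhibitors and adaptors in A375M, TNFAIP3, NFKBIE, IRAK2 and TRAF1 were lower by more than the 90th percentile of the gauge, and none reached 1.5-fold. TNFAIP3 encodes A20, a ubiquitin-editing enzyme that ends NF-kB signalling. It was at 9.59 in knock-down and 10.04 in control cells, and its probe sets agreed within rounding at -0.45 and -0.45. NFKBIE was at 7.36 in knock-down and 7.62 in control cells (-0.27), and NFKBIA, the classical IkB alpha, was at 9.44 in knock-down and 9.56 in control cells (-0.12). NFKBIZ, a nuclear IkB protein that acts as a cofactor at some targets, differed by -0.09 and -0.17 on its probe sets. IRAK2, a kinase-like adaptor of the interleukin 1 receptor, was at 7.53 in knock-down and 8.001 in control cells, a difference of -0.47 or 1.39-fold lower. Its other probe sets were identical and below the median, and the mean of all was -0.16. TRAF1, an adaptor of the tumour necrosis factor receptor family, was at 7.23 in knock-down and 7.48 in control cells (-0.24) and identical on its other kept probe set. MAP3K8, a kinase upstream of ERK, was below the median and identical at 3.38, and TNFAIP2 differed by -0.04.

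Several of these values rest on probe sets whose names end in _s_at or _x_at, which mark probes shared between transcripts. Those that stand for CCL2, IL1A and CXCL2 are so marked, and of the 4 genes at least 1.5-fold lower only PTGS2 is not. Without marked probe sets CCL2 had none left, and the remaining IL1A and CXCL2 probe sets were identical and below the median. In that setting 15 of 19 kept members were lower with 1 higher, beside 38.2% and 29.2% of all kept genes. When all probe sets of a gene were averaged 1 member, CCL2, was at least 1.5-fold lower, IL1A was at -0.44 and CXCL2 at -0.23. Whether the CXCL2 probe set also reads CXCL1 or CXCL3 was not tested. Of the 11 members with several kept probe sets, 8 were lower on all of them and 0 were higher on all. NFKB2, RELA and TRAF1 had both signs or an identical value. The same share over all genes with several kept probe sets was not counted. Whether 8 of 11 is unusual for this pair of arrays therefore cannot be said.

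**Figure D3:**
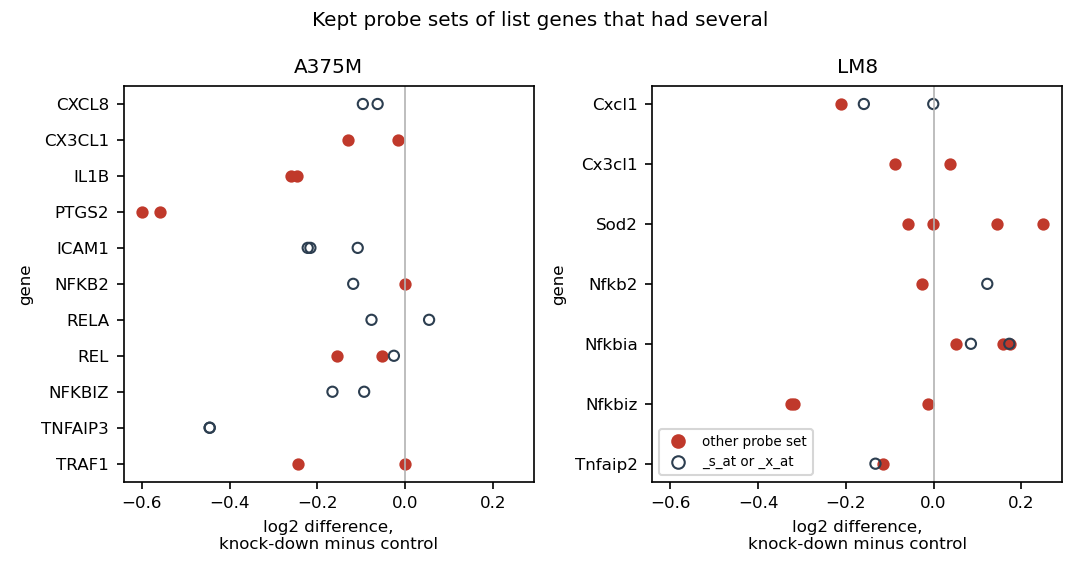
Log2 difference, knock-down minus control, of each kept probe set of the members that had several, for A375M (left) and LM8 (right), with marked probe sets as open points and others as filled red points. The 2 TNFAIP3 points in A375M overlap. In A375M the probe sets of 8 of 11 genes all lie left of 0, and in LM8 those of 3 of 7 do.

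In LM8 these genes gave no common direction, and many lay below the array median. Of 33 named members 15 lay below the array median in both arrays. Among them were Ccl2, Il1a, Cxcl2 and Ptgs2, which bear the symbols of the 4 genes at least 1.5-fold lower in A375M. Those 4 were therefore left out of the LM8 counts of kept members. Whether their signal rose above background was not tested. Of the 18 kept members 11 were lower and 7 higher in knock-down cells, beside 46.0% lower and 53.8% higher among all 11646 kept genes. The median of the members was -0.01, against 0.01 over all kept genes. Centring each array on its median gave 9 lower and 9 higher. At least 1.5-fold, 2 members were lower and 0 higher, where 1.31% of all kept genes were lower and 1.16% higher. By more than the 90th percentile of the gauge, 3 members (Tnfaip3, Ccl5 and Nfkbie) were lower and Tnf was higher, against 6.82% and 7.94% of all kept genes. Tnf was kept only through the knock-down array, so it had to be the higher of the pair there. With all 33 named members 19 were lower and 14 higher, beside 46.0% and 53.4% of all named genes without the filter.

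**Figure D4:**
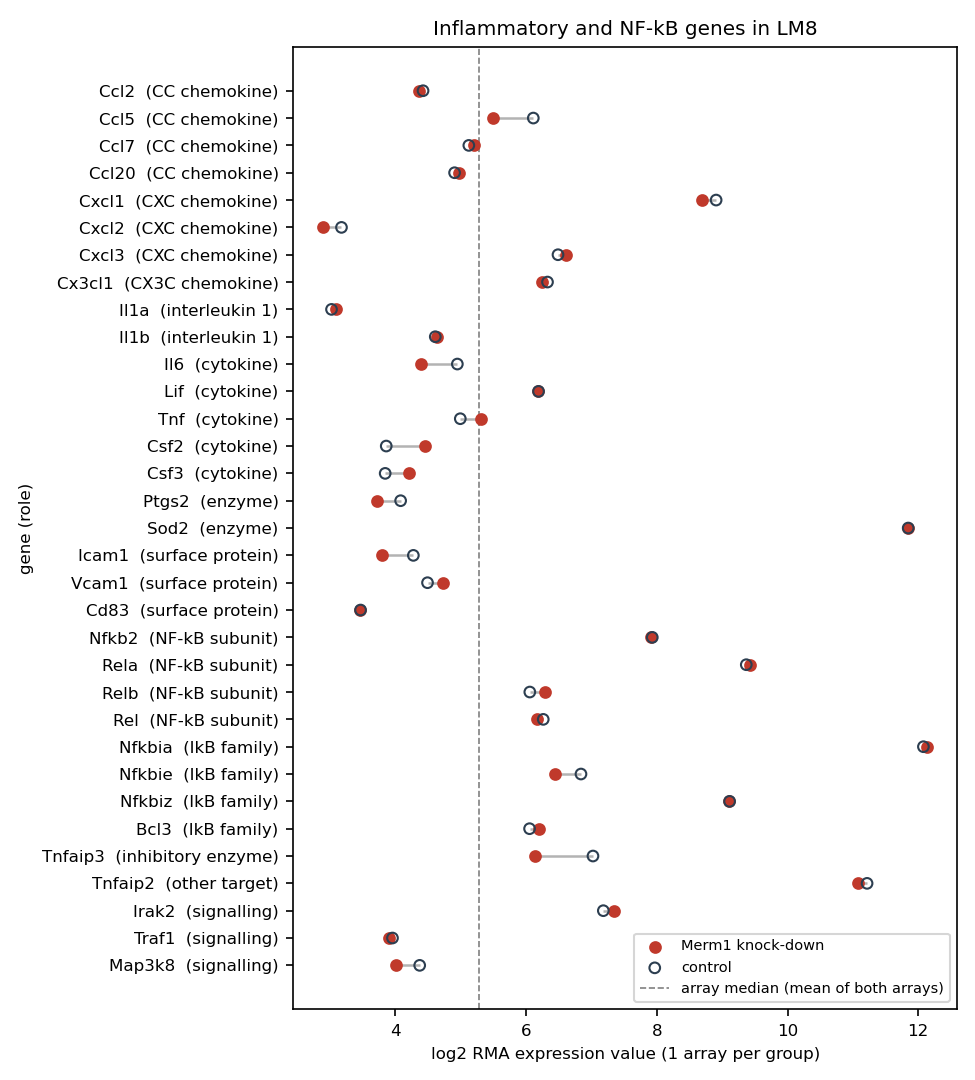
Level of each named member in LM8 (log2 RMA value, 1 array per group), drawn as for A375M with knock-down filled and control open. Tnfaip3 (6.14 in knock-down, 7.02 in control) has the widest gap among members above the dashed array median, and 15 genes lie left of that line in both arrays.

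The clearest member in LM8 was Tnfaip3, the A20 gene whose promoter is printed above. It was at 6.14 in LM8 knock-down cells and 7.02 in LM8 control cells, a difference of -0.89 or 1.85-fold lower, a place among the 55 lowest of the 11646 kept genes. Its other probe set lay below the median, at 4.87 in knock-down and 4.76 in control cells, and the mean of both gave -0.39. Ccl5, a chemokine for T cells and monocytes, was at 5.50 in knock-down and 6.11 in control cells, a difference of -0.62 or 1.53-fold lower, close to the array median. With 32 added to the linear values Ccl5 was at -0.39, and neither gene passed the stricter filter. Nfkbie, the IkB epsilon gene, was at 6.45 in knock-down and 6.84 in control cells (-0.39), and its dimmer probe set gave -0.24.

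The other feedback genes of LM8 differed less. Nfkbia was at 12.13 in knock-down and 12.08 in control cells, and all 5 of its kept probe sets were higher, by 0.05 to 0.17. Nfkbiz was at 9.10 in knock-down and 9.11 in control cells on the probe set that stands for it (-0.01), while its dimmer kept probe sets differed by -0.32 and -0.33. Bcl3, a nuclear IkB protein, was at 6.20 in knock-down and 6.05 in control cells (0.15). Among the subunits Relb was at 6.28 in knock-down and 6.06 in control cells (0.23), Rela differed by 0.06, Nfkb2 by -0.03 and 0.12 on its probe sets and Rel by -0.10, and none was beyond the 90th percentile of the gauge. Irak2 was at 7.34 in knock-down and 7.18 in control cells (0.16). Among these feedback, subunit and adaptor genes, only the dimmer Nfkbiz probe sets lay beyond the 90th percentile of the gauge.

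Of the mouse CXC chemokines whose promoters share the decamer, Cxcl1 was at 8.70 in LM8 knock-down and 8.91 in LM8 control cells, and its 3 probe sets differed by -0.21, -0.16 and -0.0008. Cxcl3 was at 6.61 in knock-down and 6.49 in control cells (0.13). Cxcl2 lay below the array median at 2.90 in knock-down and 3.17 in control cells. Neither the Cxcl1 nor the Cxcl3 difference passed the 90th percentile of the gauge. Sod2 and Lif differed by -0.0018 and -0.0024. Tnf was at 5.31 in knock-down and 4.99 in control cells (0.31), and Tnfaip2 and Cx3cl1 differed by -0.13 and -0.09. Below the median, Csf2 was at 4.45 in knock-down and 3.86 in control cells (0.59), Il6 at 4.40 in knock-down and 4.95 in control cells (-0.55), and Icam1 at 3.801 in knock-down and 4.27 in control cells (-0.47). No background level was measured for such low values, and their differences carry no order.

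Set side by side, 17 members were kept in both lines. In 9 of them the knock-down value was lower in both, in 5 it was lower in A375M and higher in LM8, 0 were higher in both, and 3 were identical in A375M. The 9 include SOD2 (-0.0018), LIF (-0.0024) and NFKBIZ (-0.0132) in LM8, all smaller in size than the LM8 gauge median of 0.116. The 5 include NFKBIA (0.0522) and RELA (0.0558), also smaller in LM8 than that median. With LM8 arrays centred on their medians, LIF (0.0063) and SOD2 (0.0069) were higher. The count of 9 therefore depends on the sign of very small differences. Of the 8981 genes kept in both lines, matched by symbol without regard to case, 20.7% were lower in both, 2152 genes were lower in A375M and higher in LM8, 14.9% were higher in both and 28.2% identical in A375M. The arrays are of different species and design, so the lines are not replicates of each other and no test joins them. TNFAIP3 differed by -0.45 in A375M and -0.89 in LM8, NFKBIE by -0.27 and -0.39, and CXCL1 by -0.37 and -0.21. These 3 were lower in both lines by more than the median of each gauge, and the share of all genes doing so was not counted. The CXCL1 difference in LM8 stayed within the 90th percentile of the LM8 gauge, 0.279. Other LM8 probe sets differed by -0.16 and -0.0008 for Cxcl1, by -0.24 for Nfkbie and by 0.11 for Tnfaip3. Those of Nfkbie and Tnfaip3 lay below the median. A further 13 members were kept in A375M only, the 4 genes at least 1.5-fold lower there among them. LIF, at -0.33 in A375M, was at -0.0024 in LM8.

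**Figure D5:**
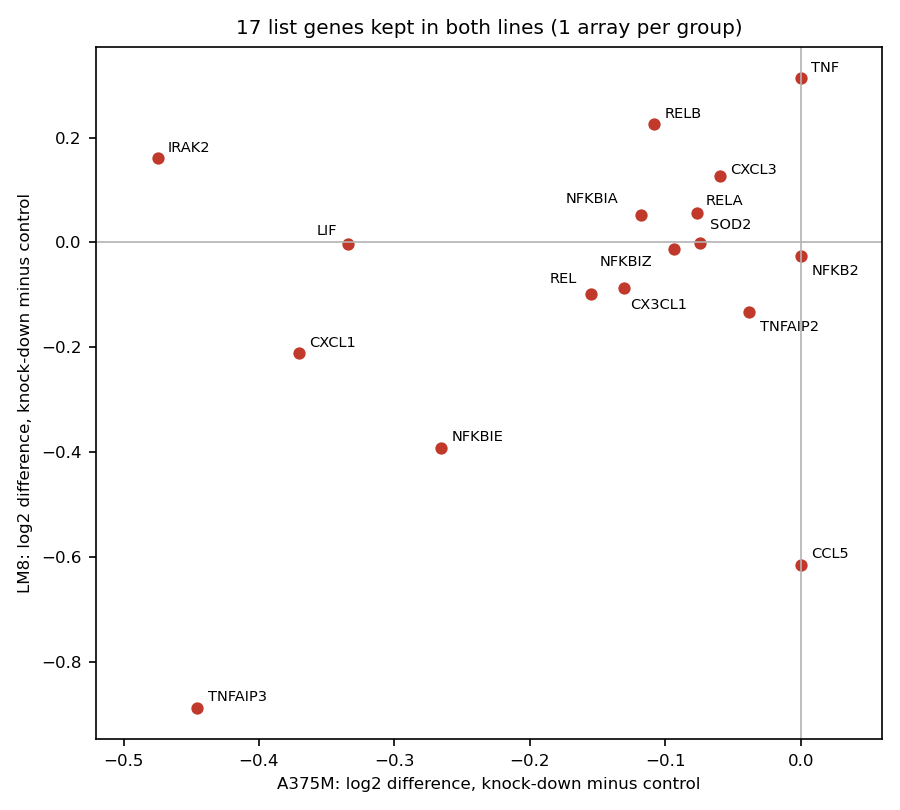
Log2 difference, knock-down minus control, in A375M (horizontal) and LM8 (vertical) for the 17 members kept in both lines, named by human symbol. TNFAIP3, NFKBIE and CXCL1 lie toward the lower left, IRAK2 and RELB are left of 0 and above 0, and TNF, CCL5 and NFKB2 sit on the A375M zero line.

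Other parts of the pathway were set beside the members with lists chosen by function. Of 34 receptor and signalling-chain genes 31 were kept in A375M, with 20 lower, 6 higher, 5 identical and a median of -0.04, and 0 reached 1.5-fold. Over all kept A375M genes 40.3% were lower, 29.0% higher and 30.8% identical. In LM8 28 were kept, 10 lower and 18 higher, with a median of 0.08, where 46.0% of all kept genes were lower and 53.8% higher. Traf5, an adaptor of the tumour necrosis factor receptor family, was the 1 gene past 1.5-fold there, at 8.93 in knock-down and 8.19 in control cells (0.74). Of 46 further genes known to be induced through NF-kB 39 were kept in A375M, with 22 lower, 9 higher, 8 identical, a median of -0.02 and 0 past 1.5-fold. In LM8 26 were kept, 13 lower and 13 higher. Ier3, an early response gene, was at 10.49 in LM8 knock-down and 11.41 in LM8 control cells (-0.92), and Il18, a cytokine of the interleukin 1 family, at 6.48 in knock-down and 5.89 in control cells (0.59). Among 17 receptors of the ligands 9 were kept in A375M, 2 lower and 3 higher, and 4 in LM8, 1 lower and 3 higher. Of 10 interleukin 1 and prostaglandin accessory genes 7 were kept in A375M, 4 lower and 3 higher, and 5 in LM8, 3 lower and 2 higher, with 0 past 1.5-fold in either list and line. The summed linear level of the leukocyte markers was 463.7 in A375M knock-down and 438.4 in A375M control cells, and 1624.9 in LM8 knock-down and 1911.7 in LM8 control cells. For 5 endothelial markers the sums were 183.8 in A375M knock-down and 205.0 in A375M control cells, and 258.3 in LM8 knock-down and 276.3 in LM8 control cells. Such sums are weighted toward bright markers. In LM8 the brightest leukocyte marker was FCER1G, at 10.23 in knock-down and 10.51 in control cells. In A375M the brightest endothelial marker was KDR, at 6.44 in knock-down and 6.84 in control cells. Mean log2 levels of the leukocyte markers were 4.94 and 4.90 in A375M knock-down and control, and 5.28 and 5.34 in LM8. Those of the endothelial markers were 4.72 and 4.74, and 4.96 and 5.01. The part of these markers in the results was not tested.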

How the data were processed

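Biotinylated cRNA from total RNA of 2 cell lines was measured on 4 Affymetrix arrays, 1 per group, per the labels' protocols. The deposited files hold log2 values, and the submitters' processing notes name RMA without a version. Groups came from the sample titles. Of 54613 human and 45037 mouse non-control probe sets, 41091 and 34945 carried 1 symbol in the platform annotation. Several symbols stood on 1801 and 932 and no symbol on 11721 and 9160, which were not used for naming. Each gene took the value of whichever of its probe sets had the highest mean. The filter at the 50th percentile left 13244 genes in A375M and 11646 in LM8. Differences were counted at 1.5-fold. The naming rule covered all members, with array values for those past 1.5-fold or in families, and other list genes past 1.5-fold. Alternatives were other filters, scalings, fold limits, an offset and other choices of probe set. Members, lists and thresholds were chosen with earlier results of these data known. Promoters are from RefSeq (GRCm38.p6). Hybridisation spike-ins had a median difference of 0.06 in A375M (range 0 to 0.28) and -0.0004 in LM8 (-0.08 to 0.09). Poly-A spike-ins had 0.02 in A375M (-0.03 to 0.31) and 0.14 in LM8 (-0.19 to 0.25). Some A375M spike-ins thus differed by more than the 90th percentile of the gauge, 0.196. Computation used Python 3.11.15, pandas 2.3.3 and statsmodels 0.14.6, with scripts tested on simulated data.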

Additional observations from a re-analysis of the deposited data

Results flagged for a closer look

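Among members kept in both lines, 2 had opposite signs in the lines with both differences above the median SD between probe sets of that line. RELB differed by -0.11 in A375M and by 0.23 in LM8. IRAK2 differed by -0.47 in A375M and by 0.16 in LM8. Both LM8 differences were smaller than 0.279, the upper gauge value used above for LM8. Without regard to size, 2152 of the 8981 genes kept in both lines were lower in A375M and higher in LM8. The share of all genes that meet the rule on size was not counted. Each line contributes 1 pair of arrays, and the difference between the lines was not tested. Groups of 1 array allow no search for outlying samples.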

How the results depend on the processing

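No paired analysis was possible because each group held 1 array and the labels give no replicate numbers, and for the same reason no replicate could be left out. In A375M, 4 members were at least 1.5-fold lower, against 1 with probe sets averaged and 1 without probe sets marked _x_at or _s_at. At 2-fold 1 member was lower, and at a looser limit of 0.322 on the log2 scale 9 were. Shares of all genes at those limits were not counted. The count higher by any amount, 1, was 2 without the filter, 0 with the filter at the 70th percentile, 2 after repeated quantile normalization and 2 after loess removal. The count lower by any amount, 25, was 15 of 19 without marked probe sets, and the median was -0.22 with the stricter filter. In LM8, the count at least 1.5-fold lower, 2, was 0 with the stricter filter, 1 with the mean of probe sets, 1 with 32 added to the linear values and 0 at 2-fold, and the count at least 1.5-fold higher was 1 (Csf2) without the filter. LM8 members lower and higher were 19 and 14 without the filter and 5 and 2 with the stricter one, where fewer genes were counted. With the mean of probe sets 8 LM8 members were lower and 9 higher, with a median of 0.05 against -0.01 in the main setting. Over all kept genes in that setting 48.3% were lower and 51.6% higher. Over all kept genes the share at least 1.5-fold lower in A375M, 0.37%, was 0.193% with the mean of probe sets and 0.174% with 32 added, and in LM8, 1.31%, it was 0.773% with 32 added. PTGS2 lost its place at 1.5-fold, leaving 3, after repeated quantile normalization and with 32 added. Without marked probe sets IL1A and CXCL2 were at 0, and 8 of the 30 members, CCL2 among them, had no value. Of the 30, 22 were lower and 1 higher under each setting that gave a value, and of 18 in LM8 8 were lower and 7 higher. CCL20 in A375M and Lif, Sod2 and Nfkb2 in LM8 turned sign. Arrays were centred on their medians as a further setting, with the values given above. Low signal limits the 15 LM8 members below the array median.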
